A study of Mus musculus with 3 samples.

Results

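Cxcl12 and its receptors Cxcr4 and Ackr3 were chosen by name, as 3 of the 32285 genes counted in single-cell libraries of the mouse otic vesicle, the epithelial sac that becomes the inner ear. Vesicles of E10.5 embryos were pooled and dissociated, and the cells were captured in droplets. The CD group carries the Sox9 allele Y440X in heterozygosity (Sox9Y440X/+) and has 1 library. The WT group is wild type and has 2 libraries, WT replicate 1 and WT replicate 2, each from pooled vesicles. Each unique molecular identifier (UMI) stands for 1 captured transcript. Levels are in CPM, the UMIs of a gene per 1e6 UMIs of its library and class of cell, and values for WT are given with replicate 1 before replicate 2.

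CXCL12 is a secreted chemokine, best known for guiding migrating cells and for holding progenitors in a niche. CXCR4 is its signalling receptor and works through inhibitory G proteins. ACKR3 binds the same ligand, couples to arrestins and takes the ligand up for degradation. In vertebrate embryos the ligand and both receptors are known from the migration of germ cells, neural crest and neurons and from the growth of vessels.

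The 250 bases before the start of each gene are shown as background, and no link between them and the levels below was tested. They come from the RefSeq promoter table of build GRCm38.p6, whereas the deposited counts were made on mm39. Capitals mark the GC box (GGGCGG, or CCGCCC on the other strand) and the TATA box (TATAAA, or TTTATA on the other strand). Both strands were searched, the TATA box matches on the 2 strands of the Cxcr4 window overlap, and so do the GC boxes of Cxcl12 whose first letters are 16 and 11 bases before the start.
Cxcl12 (chr6:117168285-117168534, plus strand): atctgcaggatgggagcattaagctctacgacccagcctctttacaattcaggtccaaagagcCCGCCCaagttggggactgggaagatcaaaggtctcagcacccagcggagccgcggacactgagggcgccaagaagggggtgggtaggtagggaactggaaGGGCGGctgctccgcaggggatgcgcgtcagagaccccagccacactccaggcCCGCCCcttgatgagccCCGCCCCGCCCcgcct
Cxcr4 (chr1:128592300-128592549, minus strand): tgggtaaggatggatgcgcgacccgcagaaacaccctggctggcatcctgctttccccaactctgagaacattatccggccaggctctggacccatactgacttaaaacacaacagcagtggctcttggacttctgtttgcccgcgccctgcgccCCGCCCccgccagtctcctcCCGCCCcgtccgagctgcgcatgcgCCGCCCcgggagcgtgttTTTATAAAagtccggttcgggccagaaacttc
Ackr3 (chr1:90203730-90203979, plus strand): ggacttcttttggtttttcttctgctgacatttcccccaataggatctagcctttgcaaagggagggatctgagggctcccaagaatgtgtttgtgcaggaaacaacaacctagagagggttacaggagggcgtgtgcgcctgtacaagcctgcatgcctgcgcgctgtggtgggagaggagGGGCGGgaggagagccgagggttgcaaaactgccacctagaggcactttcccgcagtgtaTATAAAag
The Cxcl12 window holds 5 GC boxes and no TATA box. The Cxcr4 window holds 3 GC boxes and a TATA box whose first letter is 30 bases before the start. The Ackr3 window holds 1 GC box and a TATA box whose first letter is 8 bases before the start. Of 27025 promoter windows, cut to the same 250 bases before the start, 32.9% hold the GC box and 13.0% the TATA box. The search also covered a SOX core, an octamer and a hypoxia response core, which had no match in the windows shown. GC content was 64.4% for Cxcl12, 61.2% for Cxcr4 and 54% for Ackr3, beside a median of 52% over all windows.

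Cells with at least 1000 genes and at most 10% mitochondrial UMIs numbered 8548 in the CD library, against 6564 and 11018 in WT, with medians of 18652.5 UMIs, against 20418.5 and 15508.5 UMIs. They were assigned by defining genes. Mesenchyme has at least 2 UMIs of Prrx1 and Twist1 and 0 of Epcam, and endothelium at least 2 of Cdh5 and Pecam1. Otic cells have Epcam and at least 2 UMIs of Fbxo2, Hmx2, Hmx3 and Pax2, and were divided by whether they hold a UMI of Pou3f3, a POU-domain transcription factor. Neurons have at least 2 UMIs of Neurod1 and Stmn2 and 0 of Epcam, and macrophages at least 2 of C1qa and C1qb. Mesenchyme numbered 1860 CD cells, against 1083 and 2508 in WT, otic cells with Pou3f3 769 CD cells, against 696 and 910 in WT, and otic cells without Pou3f3 2009 CD cells, against 1841 and 3173 in WT. There were 876 neurons in the CD library, against 608 and 1092 neurons in WT, 252 endothelial cells, against 276 and 304 endothelial cells, and 91 macrophages, against 74 and 105 macrophages. All 8 further markers listed for each of mesenchyme, endothelium, otic cells, neurons and macrophages were detected in that class in every library. Detection did not single out a class, since all 8 neuron markers were also found in mesenchyme in every library. Among these classes, each list had its highest summed level in its own class in every library. Otic markers summed to 767 CPM in CD otic cells, against 1249 and 1652 CPM in WT. In surface ectoderm, a group defined below, they summed to 435 CPM in the CD library, against 494 and 704 CPM in WT. Pairs of libraries shared 28 to 55 barcodes, of which 14 to 27 were kept cells in both. Sox9 in otic cells stood at 688 CPM in the CD library, against 409 and 338 CPM in WT, and these counts cannot tell the mutant transcript from the wild-type one.

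Cxcl12 was highest in mesenchyme and had a lower, second level in the otic cells that hold Pou3f3. Mesenchyme held 101 CPM in the CD library, against 135 and 74.8 CPM in WT. The mean over libraries was 103 ± 30.3 CPM (SD, n = 3), and the CD value lies between the WT values. Otic cells with Pou3f3 held 31.9 CPM in the CD library, against 31.2 and 26.4 CPM in WT. Otic cells without Pou3f3 held 7.99 CPM in the CD library, against 8.75 and 8.83 CPM in WT. The values of these 3 kinds of cell did not overlap. Neurons held 17.1 CPM in the CD library, against 16.4 and 21.8 CPM in WT, and endothelium 12.5 CPM, against 22.3 and 14.2 CPM. Macrophages had the lowest mean of the 6 classes, with 6.26 CPM in the CD library, against 10.3 and 3.39 CPM in WT.

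Of kept cells, the mesenchyme made up 21.8% in the CD library, against 16.5% and 22.8% in WT. Of the Cxcl12 UMIs it held 60.0% in the CD library, against 59.2% and 52.7% in WT. Cells with at least 5000 UMIs were thinned to 5000 UMIs, so that depth is equal, and cells with fewer were left out of every thinned value. After thinning, a Cxcl12 UMI was found in 32.6% (30.4% to 34.9%) of CD mesenchyme cells (with the exact 95% interval, counting error only). The WT shares were 40.3% (37.2% to 43.4%) and 26.1% (24.3% to 28.1%), so the CD share lies between them. In erythroid cells, which should lack the ligand, the thinned share was 1.72% in the CD library, against 0.380% and 2.10% in WT. There 7 erythroid markers, haemoglobin genes among them, summed to 451300 CPM in the CD library, against 454710 and 411610 CPM in WT. This leaves less room for other genes, in CPM and after thinning, wherever erythroid cells are set beside other classes. Before thinning, the mesenchyme shares were 59.5% in the CD library, against 67.3% and 44.0% in WT, at median depths of 18648.5 UMIs, against 19682 and 15738 UMIs. The erythroid shares were 7.88% in the CD library, against 5.68% and 11.9% in WT, at 41566.5 UMIs, against 41787 and 38250 UMIs.

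Classes were compared in 1 fit of the 18 sums of 6 classes in 3 libraries, with the library as a block (edgeR's quasi-likelihood test, Benjamini-Hochberg adjustment over 15953 genes, threshold 0.05). Cxcl12 passed in 13 of 15 pairs of classes, in contrasts that called 8.36% of all genes between the 2 kinds of otic cell and 47.9% to 67.1% elsewhere. It was higher in mesenchyme than in otic cells with Pou3f3 (log2 fold change 1.92, SE 0.17, adjusted p = 8.42e-08, 58.5% called). Mesenchyme exceeded otic cells without Pou3f3 (3.70, SE 0.18, adjusted p = 1.24e-10, 61.5% of genes called), neurons (2.47, SE 0.18, adjusted p = 1.46e-08, 57.3% of genes called) and macrophages (3.82, SE 0.30, adjusted p = 1.51e-08, 61.6% of genes called). Of classes next to each other in level, otic cells with Pou3f3 stood above neurons (0.55, SE 0.19, adjusted p = 0.0187, 63% called) and endothelium above otic cells without Pou3f3 (1.12, SE 0.23, adjusted p = 0.000392, 66.9% called). Neurons and endothelium did not differ beyond their spread (0.11, SE 0.23, adjusted p = 0.697, 59.5% called), nor did otic cells without Pou3f3 and macrophages (0.12, SE 0.40, adjusted p = 0.801, 67.1% called). The call of otic cells with Pou3f3 over neurons was lost without the doublets that Scrublet called (0.50, edgeR adjusted p = 0.0839) and without CD replicate 1 (0.39, edgeR adjusted p = 0.267).

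**Figure D1:**
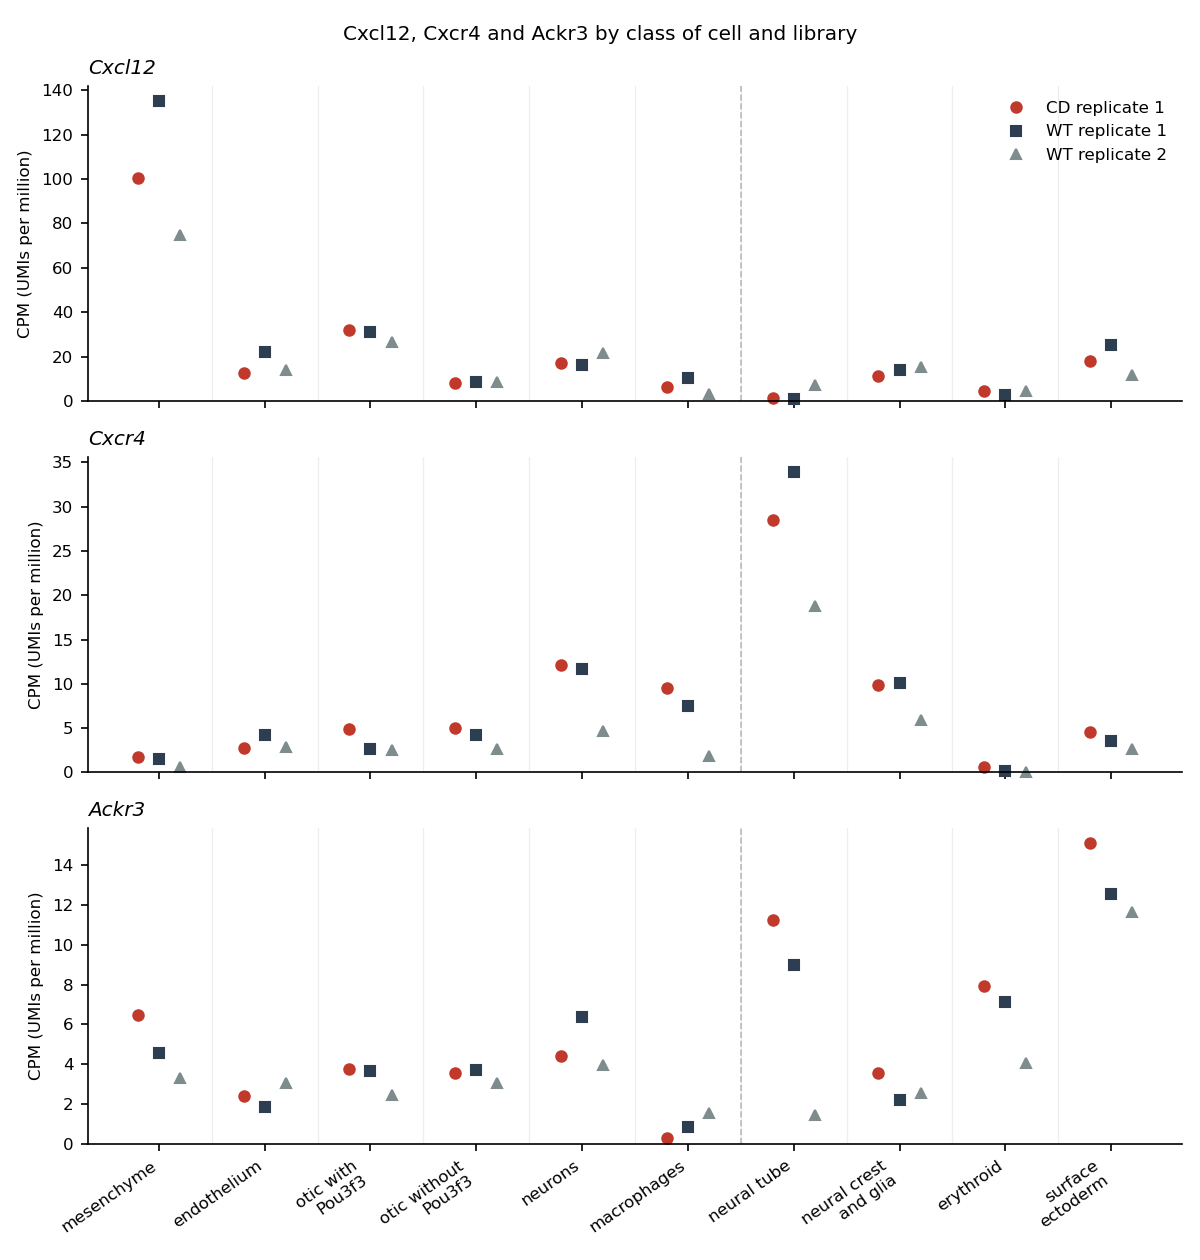
Levels of Cxcl12, Cxcr4 and Ackr3 (rows, vertical axis in CPM) in 6 classes of cell and, right of the dashed line, in 4 further groups, with 1 point for each library (CD replicate 1, WT replicate 1, WT replicate 2). Cxcl12 is highest in mesenchyme in every library, Cxcr4 in neural tube cells at 18.7 to 33.9 CPM, and Ackr3 in surface ectoderm at 11.7 to 15.1 CPM.

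The neuron value of Cxcl12 was lower without the cells that also meet another class rule. Cells counted both as neurons and as mesenchyme numbered 127 in the CD library, against 40 and 261 in WT. Among cells that meet 1 rule only, neurons held 5.89 CPM in the CD library, against 2.64 and 4.47 CPM in WT. Endothelium held 4.46 CPM in the CD library, against 18.3 and 13.9 CPM in WT, with 20 UMIs behind the CD value. In the fit endothelium then stood above neurons, in both WT libraries but not in the CD library, by 1.60 on the log2 scale (edgeR adjusted p = 0.00125), and otic cells without Pou3f3 above macrophages by 1.69 (edgeR adjusted p = 0.0464). Otic cells without Pou3f3 stood above neurons by 0.78 there (edgeR adjusted p = 0.0335), and over all cells the same difference was -1.23, SE 0.20, adjusted p = 4.98e-05, so this direction turned. Among the same cells, macrophages held 1.90 CPM in the CD library, against 1.04 and 3.26 CPM in WT, and otic cells with Pou3f3 31.4 CPM in the CD library, against 31.6 and 26.6 CPM in WT.

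Transcripts of mesenchymal genes were found at a low level in every class, and Cxcl12 in otic cells with Pou3f3 stood above them. Each library's Cxcl12 level was set against its own mesenchyme, beside 8 mesenchyme markers that the class rule does not use (Pdgfra, Col1a1, Col1a2, Col3a1, Prrx2, Twist2, Snai2 and Postn). In otic cells with Pou3f3, Cxcl12 reached 31.7% of its mesenchyme level in the CD library, where the 8 markers lay at 6.59% to 13.2%. In WT replicate 1 it reached 23.1%, with the markers at 3.51% to 13.0%, and in WT replicate 2 35.4%, with the markers at 14.2% to 21.3%. Cxcl12 thus lay above all 8 markers in all 3 libraries. In otic cells without Pou3f3 the ligand stood at 7.95% in the CD library, against 6.47% and 11.8% in WT, inside the range of the markers in each. Neurons lay inside that range as well. So did endothelium, at 12.4% in the CD library, against 16.5% and 19.0% in WT. In macrophages the ligand lay inside it in the CD library, above it in WT replicate 1 at 7.64% and below it in WT replicate 2 at 4.53%. None of the 8 markers was at 0 in either kind of otic cell. Their summed level in otic cells with Pou3f3 was 122 CPM in the CD library, against 66.0 and 174 CPM in WT, and in otic cells without Pou3f3 128 CPM in the CD library, against 87.9 and 129.5 CPM in WT. Their median percentage of the mesenchyme level was higher with Pou3f3 in every library, at 8.70% in the CD library, against 4.79% and 15.3% in WT, and without Pou3f3 at 4.33% in the CD library, against 3.61% and 9.46% in WT. Pou3f3 itself was found outside otic cells too. Its level in mesenchyme was 37.4 CPM in the CD library, against 35.9 and 29.8 CPM in WT, and in otic cells as a whole 32.7 CPM in the CD library, against 27.5 and 24.6 CPM in WT. The part of mesenchymal transcripts in the Cxcl12 level of otic cells was not tested, and levels in restricted cells are given next.

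**Figure D2:**
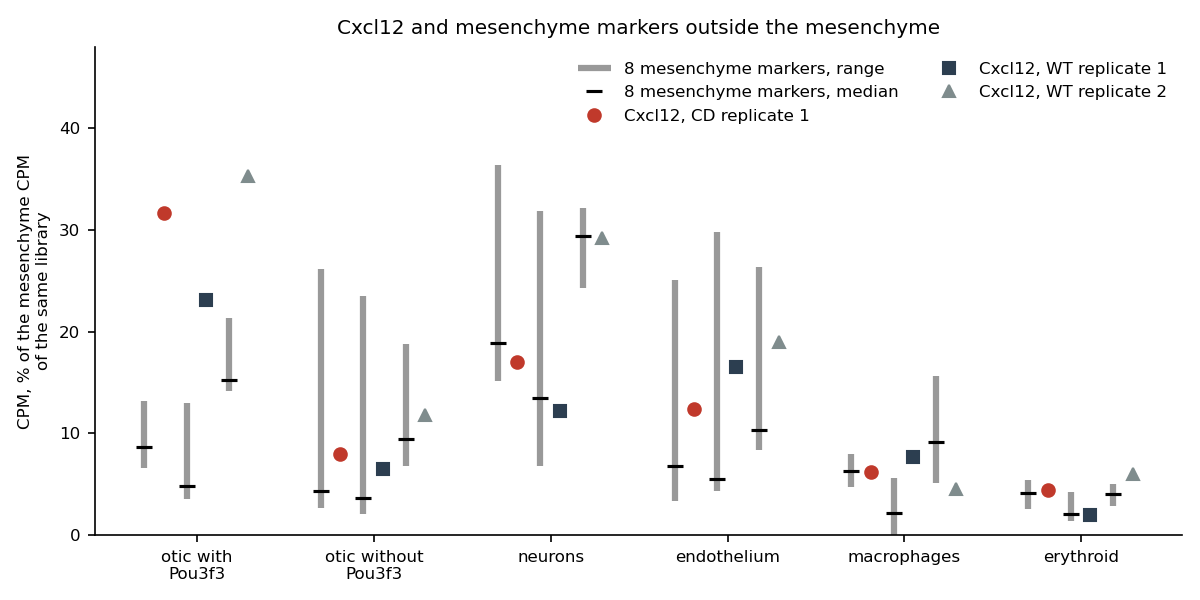
Cxcl12 (coloured points, 1 per library) and 8 mesenchyme markers (grey bars from lowest to highest, black dash at the median) in 6 kinds of cell, each as a percentage of its own CPM in the mesenchyme of the same library (vertical axis). In otic cells with Pou3f3 the Cxcl12 points, at 31.7%, 23.1% and 35.4%, lie above the bars in all 3 libraries.

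Within the otic class, cells with Pou3f3 held more Cxcl12 than cells without it in every library. The ratio of levels was 3.99 in the CD library, against 3.56 and 2.99 in WT. In a fit of the otic sums with the library as a block, the log2 fold change was 1.80, SE 0.08, adjusted p = 6.31e-08, 28.7% of genes called, by edgeR over 15390 genes. Leaving out 1 library at a time gave 1.69 to 1.92. With only the otic cells that hold 0 UMIs of Prrx1 and Twist1, a restriction chosen after the data were seen, it was 1.89 (edgeR adjusted p = 2.52e-07). Cells with Pou3f3 then held 27.6 CPM in the CD library, against 26.6 and 20.2 CPM in WT, and cells without Pou3f3 7.06 CPM in the CD library, against 6.37 and 6.78 CPM in WT. In the restricted cells with Pou3f3, Foxd1, a forkhead factor gene that is high in mesenchyme, stood at 0.929 CPM in the CD library, against 0.667 and 2.48 CPM in WT, and in the restricted cells without Pou3f3 at 1.41 CPM in the CD library, against 0.570 and 2.74 CPM in WT. Without the restriction Foxd1 stood at 15.8 CPM in the CD library, against 15.8 and 17.6 CPM in WT, for cells with Pou3f3, and at 4.10 CPM in the CD library, against 5.57 and 6.17 CPM in WT, for cells without it. Foxd1 was higher with Pou3f3 in every library before the restriction and in 1 of 3 libraries after it. Cxcl12 was higher with Pou3f3 in all 3 libraries both before and after it. The restricted Foxd1 levels rest on 15 UMIs in the CD library, against 13 and 31 in WT, for cells with Pou3f3. For cells without Pou3f3 they rest on 51 UMIs in the CD library, against 25 and 110 in WT. The part of mesenchymal transcripts in these Cxcl12 levels was not tested.

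Cells with Pou3f3 were also deeper, with medians of 27667 UMIs in the CD library, against 29857.5 and 23344.5 UMIs in WT, where cells without Pou3f3 had 20629 UMIs in the CD library, against 23679 and 17680 UMIs in WT. At 5000 UMIs per cell, 14.1% (11.7% to 16.7%) of CD cells with Pou3f3 held a Cxcl12 UMI, against 14.5% (12.0% to 17.4%) and 11.6% (9.60% to 13.9%) of WT cells with it. Of cells without Pou3f3, 3.66% (2.87% to 4.59%) did in the CD library, against 4.28% (3.40% to 5.31%) and 3.62% (2.99% to 4.34%) in WT. The intervals take cells as units and cover counting error only. Those of the 2 kinds of otic cell do not meet in any library. Before thinning, the share with Pou3f3 was 41.7% in the CD library, against 44.1% and 36.2% in WT, and without Pou3f3 12.2% in the CD library, against 13.4% and 11.9% in WT.

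The receptors were not called between these otic cells. In otic cells with Pou3f3, Cxcr4 had 4.93 CPM in the CD library, against 2.64 and 2.55 CPM in WT, and in otic cells without it 5.07 CPM in the CD library, against 4.20 and 2.67 CPM in WT. Its log2 fold change with over without Pou3f3 was -0.24, SE 0.15, adjusted p = 0.248 by edgeR. In otic cells with Pou3f3, Ackr3 had 3.74 CPM in the CD library, against 3.68 and 2.47 CPM in WT, and in otic cells without it 3.57 CPM in the CD library, against 3.72 and 3.06 CPM in WT. Its log2 fold change was -0.07, SE 0.13, adjusted p = 0.709 by edgeR. In cells thinned to 5000 UMIs neither was called, and the log2 fold changes were -0.68 for Cxcr4 (edgeR adjusted p = 0.0809) and -0.64 for Ackr3 (edgeR adjusted p = 0.120).

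Over 7 marker divisions of the otic class (Pou3f3, Gbx2, Dlx5, Otx2, Tbx1, Neurog1 and Sox2), cells that hold Sox2, a progenitor and prosensory factor, had more Cxcl12 than cells that lack it. Sox2+ cells held 20.5 CPM in the CD library, against 19.6 and 15.9 CPM in WT, and Sox2- cells 8.16 CPM in the CD library, against 7.97 and 10.6 CPM in WT. The log2 fold change was 1.03, SE 0.13, adjusted p = 0.000235, 39.1% of genes called, by edgeR, and every library was higher in Sox2+ cells. Cells that hold Dlx5, a gene of the dorsal otocyst, had less Cxcl12 (-0.78, SE 0.06, adjusted p = 3.22e-05, 29% of genes called), as had cells with Tbx1 (-0.62, SE 0.09, adjusted p = 0.000575, 31.3% of genes called). Dlx5+ cells held 13.7 CPM in the CD library, against 12.4 and 10.9 CPM in WT, and Dlx5- cells 21.6 CPM in the CD library, against 23.5 and 17.3 CPM in WT. Cells with Neurog1, which marks neuroblasts, had more (0.39, SE 0.11, adjusted p = 0.0127, 23.2% of genes called). The ratio there was 1.59 in the CD library, against 1.31 and 0.929 in WT, and the call was lost without CD replicate 1 (0.18, edgeR adjusted p = 0.320), by DESeq2 (adjusted p = 0.165) and without WT replicate 1 (0.35, edgeR adjusted p = 0.158). For Gbx2 and Otx2 the log2 fold changes of Cxcl12 were -0.04 and -0.04, neither called.

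Otx2, a factor of the ventral otocyst, divided the receptors in opposite directions. In Otx2+ otic cells Cxcr4 had 2.68 CPM in the CD library, against 1.87 and 0.929 CPM in WT, and in Otx2- otic cells 5.31 CPM in the CD library, against 4.18 and 3.02 CPM in WT. It was lower in Otx2+ cells in all 3 libraries (log2 fold change -1.26, SE 0.19, adjusted p = 0.000723, 22.1% of genes called). In Otx2+ otic cells Ackr3 had 6.37 CPM in the CD library, against 6.25 and 3.84 CPM in WT, and in Otx2- otic cells 3.29 CPM in the CD library, against 3.03 and 2.69 CPM in WT. It was higher in Otx2+ cells in all 3 libraries (0.84, SE 0.15, adjusted p = 0.00310). With cells thinned to 5000 UMIs, edgeR gave -1.07 for Cxcr4 (adjusted p = 0.0846) and 0.74 for Ackr3 (adjusted p = 0.142), so both calls were lost in these cells. Otx2+ cells numbered 217 in the CD library, against 403 and 559 in WT, with median depths of 32356 UMIs, against 33625 and 25500 UMIs, where Otx2- cells had 21897 UMIs, against 24135.5 and 18028 UMIs.

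Cxcr4 was also higher in otic cells with Gbx2, a dorsal factor (0.49, SE 0.12, adjusted p = 0.00907, 32.6% of genes called), and with Dlx5 (0.58, SE 0.15, adjusted p = 0.0217), and lower with Tbx1 (-0.40, SE 0.11, adjusted p = 0.0229). Each held its direction in all 3 libraries. The Gbx2 call was lost with DESeq2 (0.50, adjusted p = 0.125), in thinned cells (0.51, adjusted p = 0.138) and without WT replicate 1 (0.45, adjusted p = 0.0500). The Dlx5 call was lost with DESeq2 (0.59, adjusted p = 0.127), in thinned cells (0.69, adjusted p = 0.0776) and without WT replicate 1 (0.41, adjusted p = 0.107). The Tbx1 call was lost with DESeq2 (-0.40, adjusted p = 0.263), in thinned cells (-0.12, adjusted p = 0.763), without WT replicate 1 (-0.41, adjusted p = 0.0658) and without WT replicate 2 (-0.33, adjusted p = 0.107). Tests other than DESeq2 are by edgeR. Ackr3 was lower with Dlx5 (-0.41, SE 0.13, adjusted p = 0.0426), a call lost with DESeq2 (-0.41, adjusted p = 0.348), without Scrublet doublets (-0.36, adjusted p = 0.0689), in thinned cells (-0.01, adjusted p = 0.983), in cells with 0 UMIs of Prrx1 and Twist1 (-0.37, adjusted p = 0.0963), without TMM scaling (-0.38, adjusted p = 0.0615), without WT replicate 1 (-0.26, adjusted p = 0.272) and without WT replicate 2 (-0.43, adjusted p = 0.0842).

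**Figure D3:**
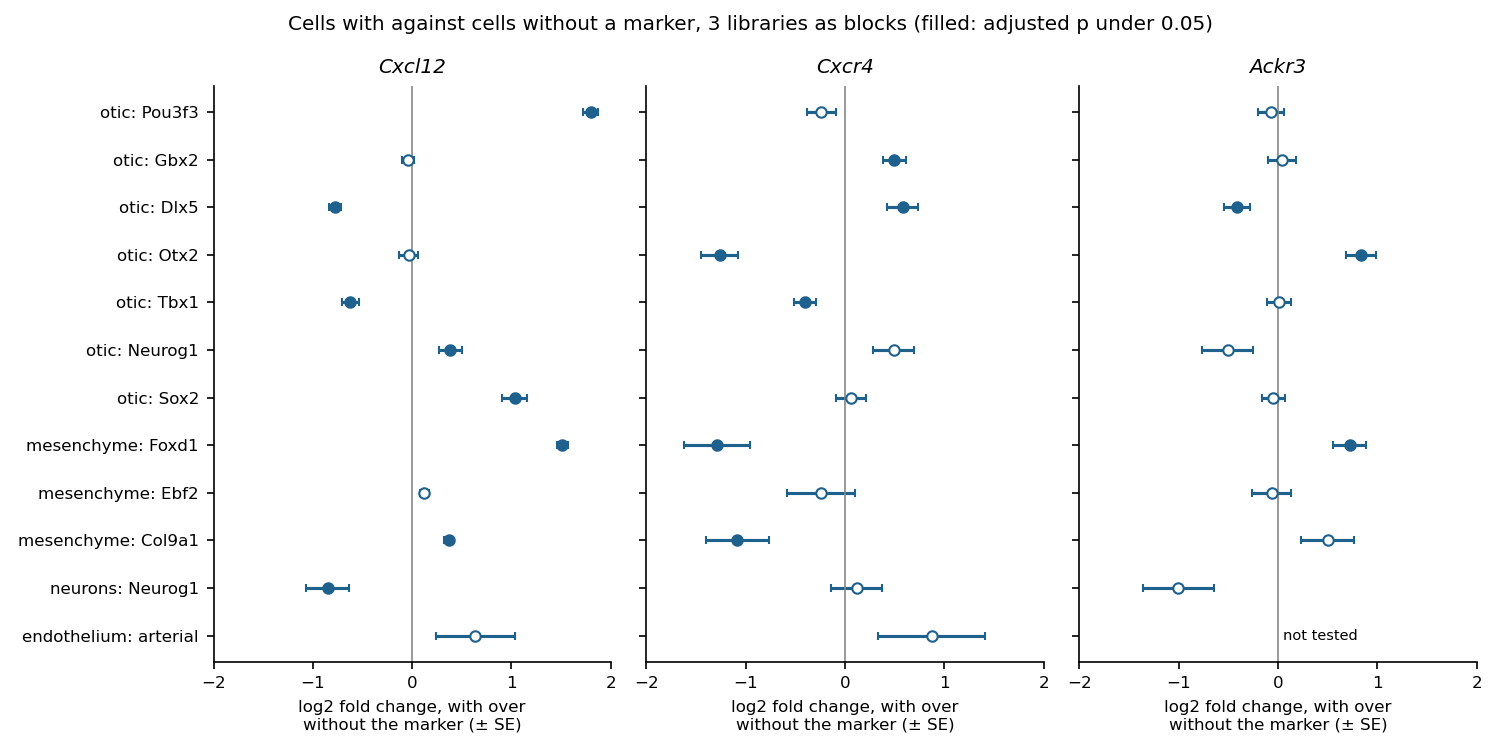
Log2 fold change with its SE (horizontal axis) of Cxcl12, Cxcr4 and Ackr3 between cells with and cells without a marker, 12 divisions within 4 classes, from edgeR fits with the 3 libraries as blocks. Filled points have an adjusted p under 0.05. Cxcl12 is 1.80 higher with Pou3f3 in otic cells and 1.51 higher with Foxd1 in mesenchyme, and for Otx2 the receptors stand on opposite sides of 0.

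Within the mesenchyme, Cxcl12 was higher in cells with Foxd1. Foxd1+ mesenchyme held 141 CPM in the CD library, against 163 and 119 CPM in WT, and Foxd1- mesenchyme 52.8 CPM in the CD library, against 54.3 and 38.3 CPM in WT. The 2 kinds of mesenchyme do not overlap, and the ratio was 2.67 in the CD library, against 2.99 and 3.103 in WT. The log2 fold change was 1.51, SE 0.05, adjusted p = 5.20e-08, 17.4% of genes called, by edgeR over 13714 genes. In cells thinned to 5000 UMIs the share of Foxd1+ mesenchyme with a Cxcl12 UMI was 44.0% in the CD library, against 47.8% and 36.3% in WT, and that of Foxd1- mesenchyme 21.4% in the CD library, against 21.6% and 17.97% in WT. Before thinning it was 78.3% in the CD library, against 80.4% and 61.9% in WT, for Foxd1+ mesenchyme, and 42.3% in the CD library, against 39.1% and 31.6% in WT, for Foxd1- mesenchyme. Foxd1+ cells had medians of 21268.5 UMIs in the CD library, against 21242 and 17433 UMIs in WT, where Foxd1- cells had 16586.5 UMIs in the CD library, against 16515 and 14683.5 UMIs in WT. Cells with Col9a1, a cartilage collagen gene, held more Cxcl12 as well (0.37, SE 0.04, adjusted p = 0.000434, 14.5% of genes called), and for Ebf2 it was not called (0.12, SE 0.05, adjusted p = 0.0956, 18.1% of genes called).

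The receptors went opposite ways in Foxd1+ mesenchyme, where Cxcr4 rests on few UMIs. The whole mesenchyme held 64 Cxcr4 UMIs in the CD library, against 35 and 23 in WT. In cells of 1 class only it held 39 UMIs in the CD library, against 24 and 13 in WT. Erythroid cells, which should lack Cxcr4, held 0.584 CPM in the CD library, against 0.180 and 0.0860 CPM in WT. In Foxd1+ mesenchyme Ackr3 had 8.29 CPM in the CD library, against 5.12 and 3.95 CPM in WT, and in Foxd1- mesenchyme 4.37 CPM in the CD library, against 2.96 and 2.78 CPM in WT (a change on the log2 scale of 0.72, SE 0.16, adjusted p = 0.0129). In Foxd1+ mesenchyme Cxcr4 had 0.794 CPM in the CD library, against 1.29 and 0.379 CPM in WT, and in Foxd1- mesenchyme 2.80 CPM in the CD library, against 2.26 and 0.717 CPM in WT (a change on the log2 scale of -1.29, SE 0.33, adjusted p = 0.0240). The Ackr3 call was lost with DESeq2 (0.72, adjusted p = 0.221), in thinned cells (0.79, adjusted p = 0.0750) and without CD replicate 1 (0.60, adjusted p = 0.150), and the Cxcr4 call with DESeq2 (-1.23, adjusted p = 0.285) and without CD replicate 1 (-0.85, adjusted p = 0.357), by edgeR where DESeq2 is not named. Cxcr4 was also lower with Col9a1 (-1.08, SE 0.32, adjusted p = 0.0461), a call lost with DESeq2 (-1.08, adjusted p = 0.436), with at least 2000 genes per cell (-0.98, adjusted p = 0.0681), in cells of 1 class only (-1.15, adjusted p = 0.0955), without CD replicate 1 (-0.999, adjusted p = 0.321) and without WT replicate 2 (-0.99, adjusted p = 0.165).

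**Figure D4:**
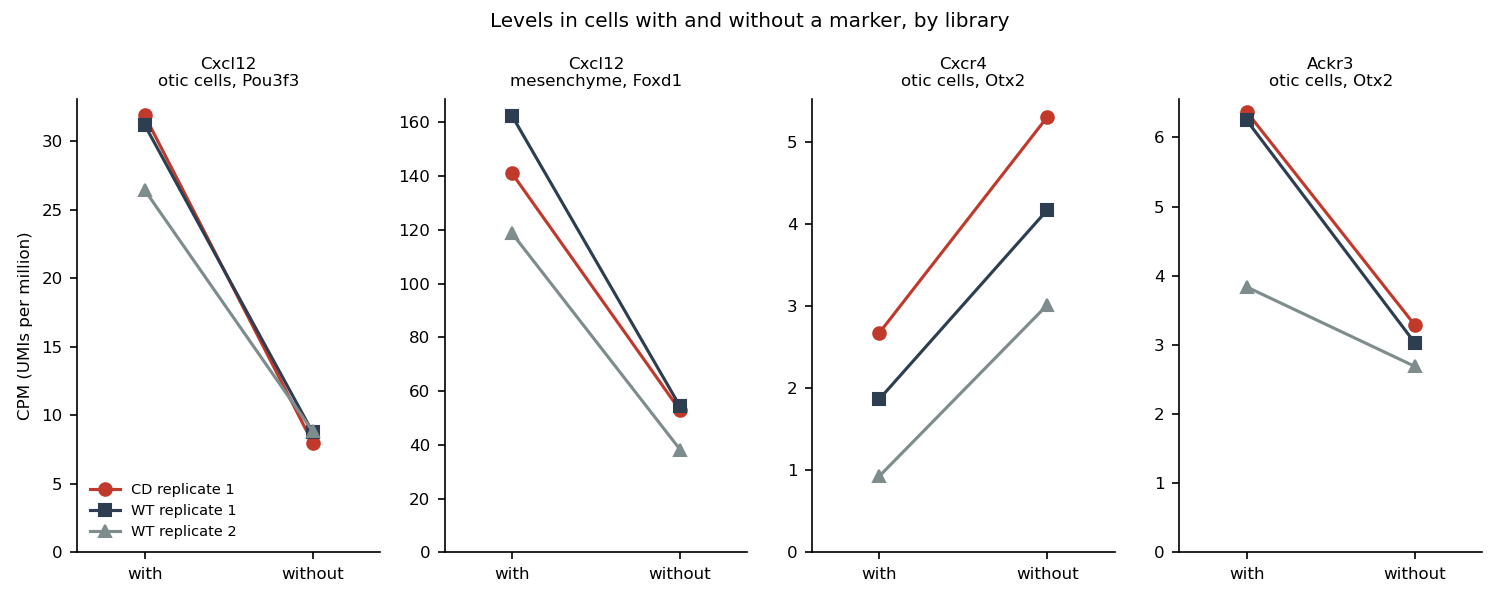
Levels in CPM (vertical axes, each from 0) in cells with and without a marker, 1 line per library, for Cxcl12 by Pou3f3 in otic cells, Cxcl12 by Foxd1 in mesenchyme, and Cxcr4 and Ackr3 by Otx2 in otic cells. Every line of a panel runs the same way, with Cxcl12 and Ackr3 higher and Cxcr4 lower in the cells that hold the marker.

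In neurons, Cxcl12 was called lower in cells with Neurog1 (-0.85, SE 0.22, adjusted p = 0.0162, 28.2% of genes called). Its direction depends on which cells are counted as neurons. The call was lost with DESeq2 (-0.90, adjusted p = 0.0736), in cells of 1 class only (0.71, adjusted p = 0.233), in cells with 0 UMIs of Prrx1 and Twist1 (-0.12, adjusted p = 0.925), without WT replicate 1 (-0.81, adjusted p = 0.0567) and without WT replicate 2 (-0.57, adjusted p = 0.0800), by edgeR where DESeq2 is not named.

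In endothelium, arterial cells were those with at least 2 UMIs of Gja4, Gja5, Hey1 and Sox17. In arterial cells Cxcl12 had 12.9 CPM in the CD library, against 26.9 and 13.4 CPM in WT, and in the other endothelial cells 11.7 CPM in the CD library, against 1.88 and 16.2 CPM in WT. The libraries did not go the same way, and the division was not called (0.63, SE 0.40, adjusted p = 0.491, 5.5% of genes called), although it was without WT replicate 2 (1.28, edgeR adjusted p = 0.00393). Endothelial cells were also restricted to those with 0 UMIs of Prrx1 and Twist1, which was chosen after the data were seen. Arterial cells among them held 12.3 CPM in the CD library, against 28.9 and 14.4 CPM in WT. The other endothelial cells then held 0 UMIs in the CD library, against 3 and 7 UMIs in WT. On these few UMIs the division was called (2.96, edgeR adjusted p = 0.00112), and the share of all genes called there is not given. Single cells weigh in these sums, since 1 cell gave 20 of the 89 Cxcl12 UMIs of CD endothelium and 1 cell 37 of 192 in WT replicate 1.

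Cxcr4, the signalling receptor, had its highest mean of the 6 classes in neurons, and the libraries differed widely. Neurons held 12.2 CPM in the CD library, against 11.7 and 4.73 CPM in WT, and macrophages 9.53 CPM, against 7.44 and 1.85 CPM. Endothelium held 2.80 CPM in the CD library, against 4.18 and 2.91 CPM in WT. Mesenchyme had the lowest mean, with 1.72 CPM in the CD library, against 1.54 and 0.564 CPM in WT. Outside the 6 classes, neural tube cells (at least 2 UMIs of Sox1, Pax6 and Hes5, 0 of Epcam, and no class) held 28.5 CPM in the CD library, against 33.9 and 18.7 CPM in WT, over 244 cells, against 338 and 47 cells. WT replicate 2 was the lowest library in 11 of 12 groups of cells, some of which overlap. The summed level of 5 neural tube markers in neurons was 49.4 CPM in the CD library, against 68.6 and 12.3 CPM in WT, and its part in the Cxcr4 level was not tested.

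Cxcr4 passed in 11 of 15 pairs of classes. The contrasts called 8.36% of all genes between the 2 kinds of otic cell and 47.9% to 67.1% elsewhere. Neurons exceeded mesenchyme (-2.88, SE 0.26, adjusted p = 1.53e-07, for mesenchyme over neurons), otic cells with Pou3f3 (-1.56, SE 0.24, adjusted p = 3.52e-05, for otic cells over neurons), otic cells without Pou3f3 (-1.30, SE 0.22, adjusted p = 9.92e-05, 63.3% of genes called, likewise) and endothelium (-1.35, SE 0.28, adjusted p = 0.000675, for endothelium over neurons). Endothelium stood above mesenchyme (1.53, SE 0.33, adjusted p = 0.000962, 56.4% called) and macrophages above otic cells without Pou3f3 (0.91, SE 0.33, adjusted p = 0.0227, 67.1% called). The call of neurons over endothelium was lost in thinned cells (-0.93, adjusted p = 0.0532), and the call of macrophages over otic cells was lost without TMM scaling (edgeR adjusted p = 0.109), in thinned cells (0.157), without CD replicate 1 (0.269) and without WT replicate 1 (0.118). Neighbours that did not differ beyond their spread, given as the first over the second, were neurons and macrophages (0.39, SE 0.32, adjusted p = 0.299, 64.2% called), otic cells without and with Pou3f3 (0.26, SE 0.23, adjusted p = 0.568), and otic cells with Pou3f3 and endothelium (-0.21, SE 0.30, adjusted p = 0.554, 66.7% called).

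At 5000 UMIs per cell, 6.09% (4.49% to 8.04%) of CD neurons held a Cxcr4 UMI, against 5.75% (3.91% to 8.10%) and 2.29% (1.38% to 3.55%) in WT. In erythroid cells, which should lack the receptor, 0 of 406 CD cells did, against 0 of 263 and 0 of 286 in WT, with exact upper bounds of 0.904%, 1.39% and 1.28%. Unthinned, the neuron shares were 17.0% in the CD library, against 15.1% and 6.50% in WT, and the erythroid shares 1.97% in the CD library, against 0.758% and 0.350% in WT. The median depth of neurons was 16388.5 UMIs in the CD library, against 16084 and 14304 UMIs in WT, and that of erythroid cells is given above.

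Ackr3, the scavenging receptor, was low in all 6 classes. Mesenchyme held 6.49 CPM in the CD library, against 4.58 and 3.31 CPM in WT. Neurons held 4.39 CPM in the CD library, against 6.35 and 3.94 CPM in WT, and endothelium 2.38 CPM, against 1.86 and 3.04 CPM. Mesenchyme overlapped neurons and both kinds of otic cell, and neurons lay above both kinds of otic cell in their ranges. Macrophages were lowest, with 1 in the CD library, against 2 and 5 in WT for the number of UMIs, or 0.298 CPM, against 0.827 and 1.54 CPM. Outside the 6 classes, surface ectoderm (Epcam with at least 2 UMIs of Trp63 and Wnt6 and 0 of the otic genes) held 15.1 CPM in the CD library, against 12.6 and 11.7 CPM in WT, over 141 cells, against 82 and 113 cells. Neural tube cells held 11.3 CPM in the CD library, against 9.00 and 1.44 CPM in WT, from 41 UMIs, against 51 and 1. Erythroid cells held 7.94 CPM in the CD library, against 7.10 and 4.04 CPM in WT.

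Ackr3 passed in 10 of 15 pairs of classes. These contrasts called 8.36% of all genes between the 2 kinds of otic cell and 47.9% to 67.1% elsewhere. Mesenchyme stood above otic cells without Pou3f3 (0.59, SE 0.20, adjusted p = 0.0189). That call was lost without CD replicate 1 (0.35), without WT replicate 1 (0.64), without TMM scaling (0.45) and in thinned cells (0.49). Neurons exceeded otic cells with Pou3f3 (-0.67, SE 0.23, adjusted p = 0.0199, for otic cells over neurons) and without it (-0.57, SE 0.22, adjusted p = 0.0325, likewise). The call with Pou3f3 was lost without WT replicate 1 (-0.56, adjusted p = 0.147), and the call without Pou3f3 without Scrublet doublets (-0.64, adjusted p = 0.0540), in thinned cells (-0.40, adjusted p = 0.289), in cells with 0 UMIs of Prrx1 and Twist1 (-0.58, adjusted p = 0.0611), without TMM scaling (-0.48, adjusted p = 0.0703) and without WT replicate 1 (-0.42, adjusted p = 0.234). Otic cells with Pou3f3 exceeded macrophages (1.55, SE 0.53, adjusted p = 0.0181, 65.9% of genes called). That call was lost in thinned cells (1.43, adjusted p = 0.421), without CD replicate 1 (0.94, adjusted p = 0.172) and without WT replicate 1 (1.44, adjusted p = 0.0945). Given as the first over the second, neurons and mesenchyme did not differ beyond their spread (-0.02, SE 0.22, adjusted p = 0.960), nor did otic cells without and with Pou3f3 (0.10, SE 0.21, adjusted p = 0.839), otic cells with Pou3f3 and endothelium (0.22, SE 0.29, adjusted p = 0.527), or endothelium and macrophages (1.33, SE 0.59, adjusted p = 0.0751, 47.9% called). In thinned cells 2 pairs were called for Ackr3, without WT replicate 1 3 pairs and without CD replicate 1 5 pairs.

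At equal depth Cxcr4 was rare in otic cells with Cxcl12, and about as rare in otic cells without it. Of 180 CD otic cells with a Cxcl12 UMI at 5000 UMIs per cell, 4 (2.22%) also held Cxcr4, as did 2.39% of the CD otic cells without Cxcl12. In WT it was 4 of 179 cells (2.23%, and 2.10% of cells without Cxcl12) and 2 of 216 (0.926%, and 1.25%). Ackr3 was found in 2 of the 180 CD cells, against 4 of 179 and 4 of 216 in WT. Without its share in otic cells that lack Cxcl12 beside them, these counts do not show whether Ackr3 is rarer with the ligand. In mesenchyme cells with Cxcl12, the share with Ackr3 was 3.75% in the CD library, against 3.46% and 3.37% in WT, and in mesenchyme cells without Cxcl12 2.68% in the CD library, against 1.83% and 1.38% in WT. Cells are not replicates, and these shares carry no test.

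The study sets the Sox9Y440X/+ vesicle beside wild type, and that comparison was made for each gene in each class. None of the 20 tests of Cxcl12, Cxcr4 and Ackr3 passed, and the lowest adjusted p was 0.964 by edgeR. All of them share the WT libraries. The share of all genes called was 0.0384% in mesenchyme, 0.319% in endothelium, 0.0932% in otic cells, 0.0463% in otic cells with Pou3f3, 0.14% in otic cells without Pou3f3 and 0% in neurons and macrophages. In neurons 265 genes had an unadjusted p under 0.05 and DESeq2 called 3, and in macrophages 245 had one and DESeq2 called 6. Without adjustment 3 of the 20 tests had p under 0.05, and DESeq2 called 0 after adjustment. Cxcr4 in otic cells with Pou3f3 had a log2 fold change of 0.89, SE 0.28, unadjusted p = 0.0137 by edgeR, with 120 UMIs in the CD library, against 64 and 62 UMIs in WT. Cxcr4 in all otic cells had 0.61, SE 0.26, unadjusted p = 0.0435 by edgeR, at 5.02 CPM in the CD library, against 3.69 and 2.64 CPM in WT. Cxcl12 in endothelium had -0.58, SE 0.27, unadjusted p = 0.0293 by edgeR, and 0.07 in thinned cells.

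For Cxcl12 the log2 fold change of CD over WT was -0.10 (SE 0.28) in mesenchyme, 0.11 (SE 0.17) in otic cells with Pou3f3 and -0.20 (SE 0.21) in otic cells without it. Without WT replicate 1 the mesenchyme value was 0.37 and without WT replicate 2 -0.46, with no test, so its sign rests on which WT library is kept. Ackr3 in mesenchyme had 0.69, SE 0.31, unadjusted p = 0.0531 by edgeR, with the CD library above both WT libraries. In the CD library Cxcr4 lay above its level in either WT library in 8 of 12 groups of cells, and Ackr3 in 7. The groups overlap, since all otic cells include both kinds, and cells of no class include the neural tube cells. They also come from the same libraries, so they are not separate observations, and no share over all genes was computed. WT replicate 2, the shallowest library per cell, was the lowest in 11 of 12 groups for Cxcr4 and in 9 for Ackr3, and the part of depth was not tested. A test of whether the CD effect differs between classes called 0% of 15953 genes (318 had an unadjusted p under 0.05), with unadjusted p = 0.864 for Cxcl12, 0.493 for Cxcr4 and 0.244 for Ackr3 by edgeR. With 1 CD library the fit in a class has 1 residual degree of freedom, to which edgeR adds the spread of all genes. The lone CD library is assumed to vary like WT.

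**Figure D5:**
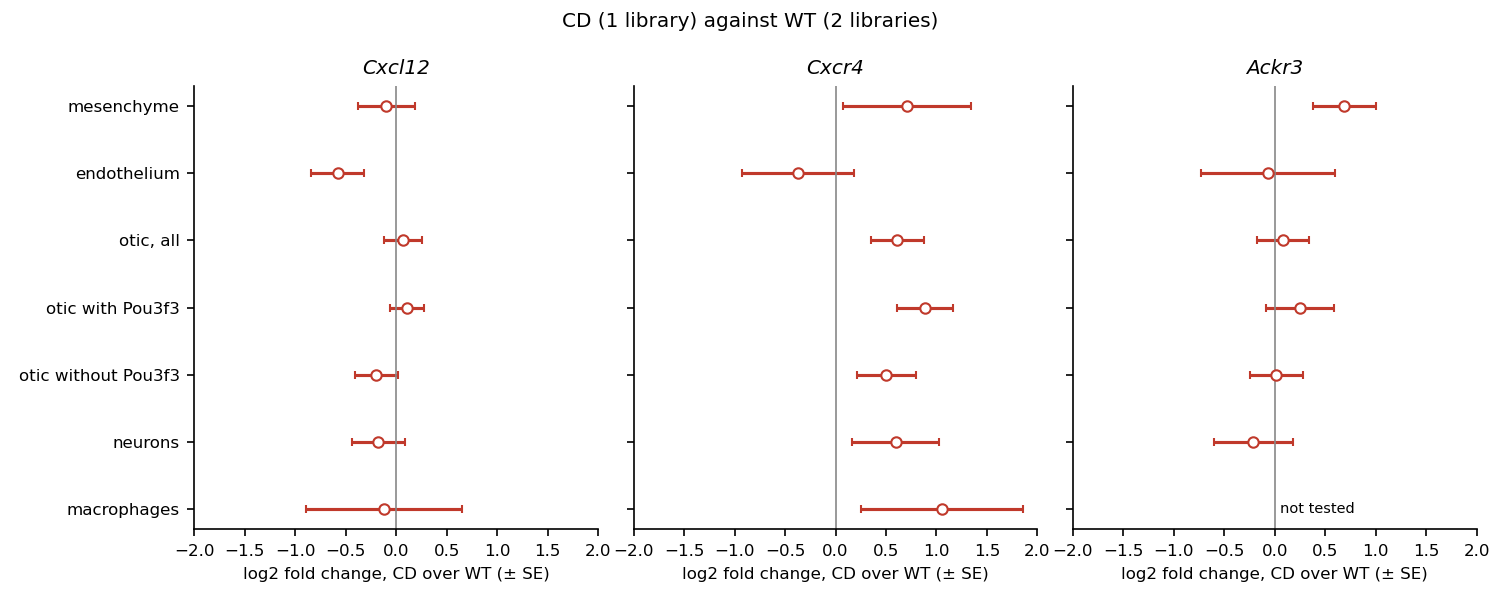
Log2 fold change with its SE, CD over WT (horizontal axis), of Cxcl12, Cxcr4 and Ackr3 in 7 groups of cells, from edgeR fits of 1 CD and 2 WT libraries. No point passed the test, and Ackr3 in macrophages was left untested by the filter on low counts.

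Genes of the same pathway were followed in 4 lists of 88 genes in all. Of 8 tested ligands and partners, 2 were higher and 1 lower in otic cells with Pou3f3 (list median -0.07, and 0.01 over all genes, of which 28.7% were called). Ramp2 and Calcrl, whose products together form an adrenomedullin receptor, were higher (0.59, SE 0.12, adjusted p = 0.00362, and 0.67, SE 0.21, adjusted p = 0.0357, by edgeR). Ramp2 in endothelium stood at 657 CPM in the CD library, against 763 and 719 CPM in WT, and in otic cells with Pou3f3 at 6.95 CPM in the CD library, against 4.96 and 9.58 CPM in WT. In otic cells with Pou3f3 the summed level of 8 endothelial markers was 46.3 CPM in the CD library, against 39.2 and 56.2 CPM in WT, and in those without it 32.3 CPM in the CD library, against 34.2 and 49.3 CPM in WT, and its part in both calls was not tested. Mif, which encodes an alternative ligand of CXCR4, was lower (-0.20, SE 0.02, adjusted p = 0.000111). Of 21 signalling and trafficking genes, 6 were higher and 2 lower (median 0.06, against the same 28.7% of all genes called), among them Rgs16, a GTPase activator gene (0.56, SE 0.12, adjusted p = 0.00486), and Gnb2, a G protein subunit gene (-0.14, SE 0.02, adjusted p = 0.00165). Of 42 other chemokines and receptors, 10 had enough UMIs for the test and 0 passed by edgeR, where 0 had an unadjusted p under 0.05.

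Of 15 genes that process or present the ligand, 6 were higher and 7 lower in otic cells with Pou3f3 (median -0.09), where 28.7% of all genes were called. In otic cells with Pou3f3 the carboxypeptidase gene Cpm had 29.6 CPM in the CD library, against 17.4 and 9.50 CPM in WT, and in otic cells without it 9.30 CPM in the CD library, against 5.69 and 4.11 CPM in WT (1.53, SE 0.09, adjusted p = 5.96e-07, by edgeR). The peptidase gene Mme was lower (-0.80, SE 0.06, adjusted p = 3.70e-06), as were Sdc2 (-0.59, SE 0.04, adjusted p = 2.39e-06) and Sdc4 (-0.41, SE 0.05, adjusted p = 7.69e-05), which encode core proteins of heparan sulfate proteoglycans that can hold chemokines at the cell surface.

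In Foxd1+ mesenchyme, 9 of 14 tested processing and presentation genes were higher and 0 lower (median 0.27, and -0.01 over all genes, of which 17.4% were called in either direction). Mme was higher there (0.63, SE 0.05, adjusted p = 3.75e-05, by edgeR), as were Sdc2 (0.61, SE 0.07, adjusted p = 0.000182), Mmp14, a membrane metalloproteinase gene (0.34, SE 0.05, adjusted p = 0.00134), and Ext1, which builds heparan sulfate (0.29, SE 0.06, adjusted p = 0.00666). Of 7 ligands and partners, 1 was higher and 3 lower (median -0.43, with the same 17.4% of all genes called), the lower ones being Mif, Ramp2 and Cxcl14, a chemokine gene (-1.82, SE 0.37, adjusted p = 0.00700). By Otx2 in otic cells, 3 of 8 ligands and partners were lower and 0 higher (median -0.37, and 0.01 over all genes, of which 22.1% were called), and these were Mif, Ramp2 and Cxcl14 as well (-1.13, SE 0.31, adjusted p = 0.0268 for Cxcl14). Of 21 signalling genes 4 were higher and 4 lower in Otx2+ otic cells, in that same comparison with 22.1% of all genes called, among them Arrb1, an arrestin gene (0.62, SE 0.12, adjusted p = 0.00365), and Rgs2, a GTPase activator gene (-0.86, SE 0.07, adjusted p = 1.32e-05).

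In CD against WT, 0 members of the 4 lists passed by edgeR in mesenchyme, in otic cells with or without Pou3f3, in neurons and in macrophages, and 27 of the 303 tests (8.91%) had an unadjusted p under 0.05. Over all genes the share was 1.19% to 4.26% in these 5 comparisons, which share the WT libraries. In endothelium 3 of 16 tested chemokines and receptors were called higher, in a comparison that called 0.117% of all genes higher. These were Ccl3, Ccl4 and Cxcl2, which macrophages are known to make. DESeq2 called 0 genes there. A single CD cell with 75 UMIs of C1qa and C1qb held 70.6% of the Ccl3 UMIs, 94.4% of the Ccl4 UMIs and 83.9% of the Cxcl2 UMIs of CD endothelium.

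Over the 18 sums of 6 classes in 3 libraries, the gene whose level ran most like Cxcl12 was Foxd1 (Pearson's r = 0.95 on log2(CPM + 1)), among 10052 genes, followed by Lamc3 (0.92), Lama1 (0.92), Tnfaip6 (0.91) and Foxc2 (0.91). Lamc3 and Lama1 encode laminin chains of the basement membrane, and Foxc2 is a forkhead gene of the mesenchyme. For Cxcr4 the closest were Rtn3 (0.92), AU040320 (0.92), Bsdc1 (0.90), Dffa (0.90) and Sdccag8 (0.89). For Ackr3 they were Sqle (0.94), Hmgcs1 (0.93), Asxl3 (0.93), Thra (0.93) and Rbfox2 (0.92), of which Sqle and Hmgcs1 encode enzymes of cholesterol synthesis. Cxcl12 had r = -0.47 with Cxcr4 and 0.55 with Ackr3, and the receptors -0.17 with each other. The sums share libraries and depth, so these values are descriptions.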

How the data were processed

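Per the labels' protocols, otic vesicles were pooled, and libraries were made with a Chromium 3' v3.1 kit. The authors deposited UMI counts per gene and barcode, made with Cell Ranger 6.0 on mm39 per the submitters' processing notes (version 6.0.0 per the file headers). The totals were 186439890 UMIs in the CD library, against 157373393 and 202584468 in WT. UMIs were summed per library and class and tested with edgeR 4.0.16 in R 4.3.3 (quasi-likelihood test, TMM scaling, filterByExpr, Benjamini-Hochberg adjustment, threshold 0.05). DESeq2 1.42.0 was an alternative. A cell could meet more than 1 class rule. Scrublet in scanpy 1.11.5 called 3.29% of CD cells doublets, against 2.80% and 3.39% of WT cells, which were kept. Exact intervals (scipy 1.17.1) cover counting error only. Nothing says that the WT libraries came from separate litters, so p-values cannot be said to cover the spread between litters. edgeR moderates the spread of each gene with that of all genes, so its p-values do not rest on the gene's own values alone. In fits with the library as a block, p-values measure how differences within a library vary over the libraries. The edgeR steps were tested on simulated data. Named genes were Cxcl12, Cxcr4 and Ackr3, from each list up to 4 genes past the threshold by smallest p, and the 5 genes most correlated with each. Alternatives were other scaling factors, no gene filter, other cell filters, no doublets, cells of 1 class, thinning and leaving out a library. The members and lists were chosen with earlier results of these data known.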

Additional observations from a re-analysis of the deposited data

How the results depend on the processing

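Of 1225 tested log2 fold changes under the alternatives, 1075 kept sign and side of the threshold, 83 lost a call and 11 gained one with the same sign, and 56 changed sign. Of 40 values of CD against WT without 1 WT replicate, which have no test, 10 changed sign. Of 78 counts of calls, 8 fell by over 1.5 times. The 27 tests of class differences of CD stayed uncalled, and the call or its absence for Pou3f3 in otic cells was kept in all 39 values, with 1 change of sign for Ackr3 given here. The cause of each change was not tested. DESeq2 called 1 marker division for Cxcr4 and 1 for Ackr3, where edgeR called 6 and 3. In cells thinned to 5000 UMIs, 0 divisions were called for Cxcr4, 0 for Ackr3 and 2 class pairs for Ackr3 (10 without thinning), so fewer calls were made for both receptors in these cells. Over the alternatives, the number of all genes called for CD against WT ran 0 to 54 (6 as reported) in mesenchyme, 0 to 46 (41 as reported) in endothelium, 4 to 155 (16 as reported) in otic cells, 0 to 93 (7 as reported) with Pou3f3, 2 to 217 (23 as reported) without Pou3f3, 0 to 74 (0 as reported) in neurons and 0 to 64 (0 as reported) in macrophages. For Pou3f3 in otic cells it ran 2028 to 4980 (4416 as reported), for Otx2 1574 to 3970 (3393 as reported) and for Foxd1 in mesenchyme 1032 to 3085 (2392 as reported), with 2028, 1879 and 1032 by DESeq2. Log2 fold changes with the other sign than the main value follow. With RLE factors, summed UMIs alone, DESeq2, at least 2000 genes and cells of 1 class only, that was Ackr3 for mesenchyme against neurons (-0.0397, -0.0233, -0.0471, -0.0163, -0.0378). With RLE factors and DESeq2 it was also Cxcr4 for endothelium against otic cells without Pou3f3 (0.00440, 0.0195). With at least 500 genes and at most 20% mitochondrial UMIs it was Cxcl12 for otic cells without Pou3f3 against macrophages (-0.11) and Ackr3 for Tbx1 in otic cells (-0.0222). Without Scrublet doublets it was Cxcl12 for CD against WT in otic cells (-0.0195), Ackr3 for CD against WT in otic cells with Pou3f3 (-0.0454), Cxcr4 for endothelium against otic cells without Pou3f3 (0.00291), Cxcl12 for Otx2 in otic cells (0.16) and Cxcr4 for Ebf2 in mesenchyme (0.0287). With cells of 1 class only it was also Cxcl12 for CD against WT in neurons (0.69), Cxcr4 for endothelium against otic cells with Pou3f3 (-0.35), Cxcl12 for endothelium against neurons (1.60), Cxcl12 for otic cells without Pou3f3 against neurons (0.78), Ackr3 for Ebf2 in mesenchyme (0.0371), Cxcl12 for Neurog1 in neurons (0.71) and Cxcr4 for Neurog1 in neurons (-0.0457). In thinned cells it was Cxcl12 for CD against WT in endothelium (0.0677), Ackr3 for CD against WT in otic cells without Pou3f3 (-0.0779), Ackr3 for CD against WT in neurons (0.0134), Ackr3 for endothelium against otic cells with Pou3f3 (0.29), Cxcr4 for endothelium against otic cells without Pou3f3 (0.37), Cxcl12 for Otx2 in otic cells (0.18), Ackr3 for Tbx1 in otic cells (-0.15), Cxcr4 for Sox2 in otic cells (-0.21) and Ackr3 for Ebf2 in mesenchyme (0.40). With 0 UMIs of Prrx1 and Twist1, chosen after seeing the data, it was Cxcl12 for CD against WT in otic cells without Pou3f3 (0.0441), Ackr3 for CD against WT in otic cells without Pou3f3 (-0.00504), Cxcl12 for CD against WT in neurons (0.0451), Cxcr4 for endothelium against otic cells without Pou3f3 (0.0639), Cxcl12 for endothelium against neurons (1.37), Cxcl12 for otic cells without Pou3f3 against neurons (0.0592), Cxcl12 for Otx2 in otic cells (0.26) and Ackr3 for Tbx1 in otic cells (-0.0524). Leaving out 1 library at a time gave 3 to 10 class pairs for Ackr3 and 3 to 4 divisions for Cxcr4, and changed a sign in Ackr3 for CD against WT in endothelium (-0.39 to 0.34), Ackr3 for CD against WT in neurons (-0.50 to 0.12), Ackr3 for CD against WT in otic cells (-0.0864 to 0.25), Ackr3 for CD against WT in otic cells with Pou3f3 (-0.0112 to 0.56), Ackr3 for CD against WT in otic cells without Pou3f3 (-0.12 to 0.14), Ackr3 for endothelium against otic cells with Pou3f3 (-0.62 to 0.0593), Ackr3 for mesenchyme against neurons (-0.35 to 0.22), Ackr3 for Pou3f3 in otic cells (-0.17 to 0.0289), Ackr3 for otic cells with Pou3f3 against otic cells without Pou3f3 (-0.18 to 0.0179), Ackr3 for Ebf2 in mesenchyme (-0.30 to 0.10), Ackr3 for Gbx2 in otic cells (-0.0449 to 0.18), Ackr3 for Tbx1 in otic cells (-0.0810 to 0.0677), Cxcl12 for CD against WT in macrophages (-0.76 to 0.89), Cxcl12 for CD against WT in mesenchyme (-0.46 to 0.37), Cxcl12 for CD against WT in neurons (-0.39 to 0.0828), Cxcl12 for CD against WT in otic cells (-0.0502 to 0.17), Cxcl12 for CD against WT in otic cells with Pou3f3 (-0.00551 to 0.22), Cxcl12 for endothelium against neurons (-0.44 to 0.14), Cxcl12 for otic cells without Pou3f3 against macrophages (-0.28 to 0.51), Cxcl12 for arterial cells in endothelium (-0.11 to 1.28), Cxcl12 for Otx2 in otic cells (-0.14 to 0.10), Cxcr4 for endothelium against otic cells with Pou3f3 (-0.11 to 0.65), Cxcr4 for endothelium against otic cells without Pou3f3 (-0.20 to 0.26), Cxcr4 for Ebf2 in mesenchyme (-0.59 to 0.16), Cxcr4 for Neurog1 in neurons (-0.20 to 0.33) and Cxcr4 for Sox2 in otic cells (-0.13 to 0.21). It kept the sign of Cxcl12 for CD against WT in otic cells without Pou3f3 (-0.22 to -0.19), which moved by more than the small WT spread. CD against WT without a WT replicate, or without the CD library, leaves no test. No paired analysis was possible because CD and WT share only replicate number 1.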
